A study of Homo sapiens with 12 samples.

Results

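Lipid droplets are stores of triglyceride and sterol ester that bud from the endoplasmic reticulum and are wrapped in a single layer of phospholipid and a coat of proteins. The genes of droplet coating, breakdown and synthesis followed here across the study were HILPDA, PLIN2, PLIN3, PNPLA2, G0S2, DGAT1, DGAT2 and ACSL3. They were found by matching the gene IDs of the counts to symbols, and all 8 of 8 were present among 57820 gene IDs and passed the filter on low counts. In cells short of oxygen, oxidation of fatty acids slows and droplets commonly accumulate. Genes of this group, HILPDA and PLIN2 among them, are known as targets of the hypoxia inducible factors (HIFs).

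All 12 libraries hold polyadenylated RNA of a single established cell line, AsPC-1, which derives from a human pancreatic cancer. The cells received either a non-targeting siRNA with a scrambled sequence (siControl) or an siRNA that targets ARNT (siARNT), and were kept at 21% O2 (normoxia) or moved to 1% O2 for 24 h (hypoxia), and RNA was taken 48 h after transfection. ARNT is the partner that the HIF alpha subunits need to bind DNA, and the aryl hydrocarbon receptor and some related factors need it too, so siARNT is not specific to HIF. The 4 groups are siControl and siARNT in normoxia and siControl and siARNT in hypoxia, with replicates A, B and C in each, and nothing in the labels gives them as separate cultures beyond the wells of a plate. P-values measure the spread between these samples, which may be technical.

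ARNT itself (ENSG00000143437.16) stood at 62.4 ± 1.53, 13.4 ± 0.56, 69.1 ± 3.81 and 15.3 ± 1.04 CPM (counts per M reads assigned to genes, with TMM scaling) in those groups, in that order (SD, n = 3), so every siARNT library held less ARNT than every siControl library. ARNT checks the siRNA label and not the oxygen label. Totals ran from 38.53 to 84.34 M counts per library. Epithelial markers were high (EPCAM from 794 to 1037 CPM, KRT8 from 1182 to 3459), while the ductal keratin KRT7 was low, from 1.1 to 4.01 CPM. Markers of other cell types summed to between 1.53 and 2.46 CPM in a library, and the adipocyte genes ADIPOQ and CIDEA were at 0 in all 12. Libraries differed in how counts lean with the GC content of genes. The slope ran from -0.208 to 0.431 log2 units per 10 points of GC, and was most positive in normoxia siARNT replicate B (0.431), hypoxia siARNT replicate C (0.243) and hypoxia siControl replicate B (0.122). Among the 8 genes GC content runs from 38.1% in ACSL3 to 64.5% in PNPLA2, and for these 8 genes values that move with the slope are given beside it.

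Per kb of exon, the mean level in normoxia siControl was highest for ACSL3 (21.8 ± 1 CPM per kb) and PLIN3 (18.6 ± 0.57), followed by DGAT1 (8.98 ± 0.723). HILPDA (3.18 ± 0.127), G0S2 (3.15 ± 0.327), PLIN2 (2.98 ± 0.0393) and DGAT2 (2.83 ± 0.278) followed, and PNPLA2 was lowest at 1.76 ± 0.511 CPM per kb (SD, n = 3). From HILPDA to DGAT2 the libraries of each gene overlapped those of the next. Each HILPDA library (3.033 to 3.257) was above each PLIN2 library (2.957 to 3.028), by a gap smaller than the spread of HILPDA. Lengths are those of all annotated exons of a gene, so a gene with long unused exons is set too low on this scale.

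**Figure D1:**
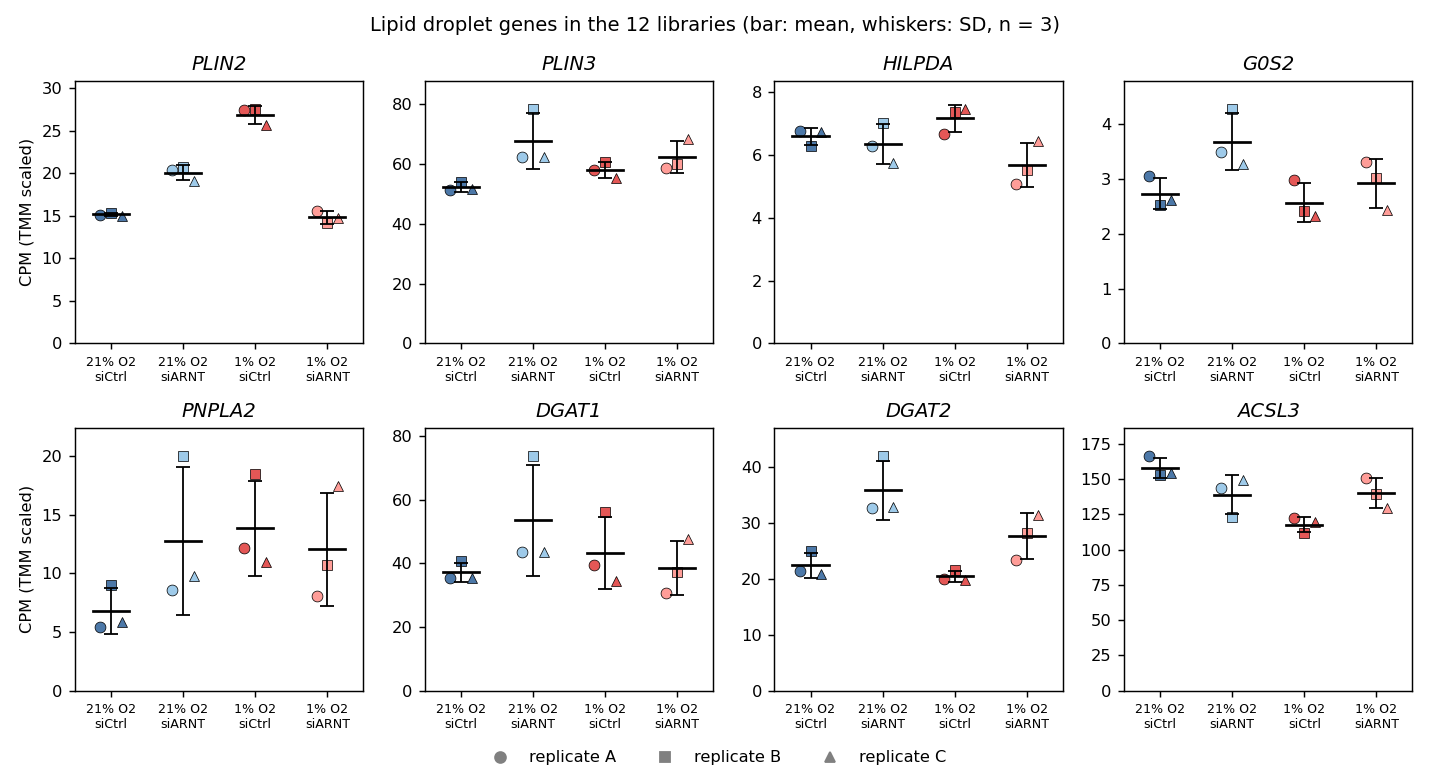
Level of each gene in CPM (vertical axis, from 0) in the 4 groups, with points for replicates A, B and C, a bar for the mean and whiskers for the SD (n = 3). PLIN2 is tight within groups and highest in hypoxia siControl, where its libraries sit between 25.6 and 27.6 CPM, while PNPLA2 and DGAT1 each have 1 high library in several groups.

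PLIN2, which encodes perilipin 2, the coat protein that marks droplets in most cells outside fat, gave the clearest pattern. Replicates A, B and C held 15.1, 15.4 and 15.04 CPM in normoxia siControl and 27.4, 27.6 and 25.6 CPM in hypoxia siControl. With siARNT it was 20.4, 20.8 and 19.1 CPM in normoxia and 15.6, 14.1 and 14.8 CPM in hypoxia. The hypoxia siControl libraries stood above all the others, the normoxia siARNT libraries came next, and normoxia siControl and hypoxia siARNT overlapped.

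Hypoxia raised PLIN2 in siControl by 0.83 on the log2 scale (SE 0.0695, adjusted p 9e-06, edgeR's quasi-likelihood test), from 15.2 ± 0.2 to 26.9 ± 1.06 CPM (SD, n = 3). In siARNT it fell with hypoxia by 0.44 (SE 0.0695, adjusted p 0.00729), from 20.1 ± 0.865 to 14.8 ± 0.735 CPM. The difference of the 2 responses, the interaction, was -1.26 (SE 0.0983, adjusted p 3.42e-05). Seen the other way, siARNT raised PLIN2 by 0.41 at 21% O2 (SE 0.0693, adjusted p 0.00228). At 1% O2 its level was lower, with a change of -0.86 (SE 0.0698, adjusted p 3.83e-06). The fall in siARNT was called less firmly than the rest. Its adjusted p was 0.133 in a fit of the 2 groups alone and 0.0551 without hypoxia siARNT replicate B. It was 0.0556 in a fit that took each replicate letter within an siRNA as 1 transfected well, which the labels do not state. In 3 of the 4 groups PLIN2 was highest in the library with the most positive GC slope. With a GC correction hypoxia changed PLIN2 by 0.90 in siControl (adjusted p 5.8e-09) and by -0.41 in siARNT (adjusted p 0.000166), by the same test. The interaction was then -1.31 (adjusted p 3.33e-08).

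The promoter of PLIN2 is shown because PLIN2 is the gene whose response to oxygen differed between the siRNAs, and that of ACSL3 because it is the other gene called for hypoxia in siControl, in the opposite direction. The sequences are from RefSeq (GRCh38.p14), run from 250 bases before the annotated start to 50 after it, and are written 5′ to 3′ on the strand of the gene. Capitals mark ACGTG and GCGTG on either strand (as CACGT and CACGC on the other), the core letters of hypoxia response elements. PLIN2 is at chr9:19127443-19127742 on the minus strand, and ACSL3 at chr2:222860786-222861085 on the plus strand.
PLIN2: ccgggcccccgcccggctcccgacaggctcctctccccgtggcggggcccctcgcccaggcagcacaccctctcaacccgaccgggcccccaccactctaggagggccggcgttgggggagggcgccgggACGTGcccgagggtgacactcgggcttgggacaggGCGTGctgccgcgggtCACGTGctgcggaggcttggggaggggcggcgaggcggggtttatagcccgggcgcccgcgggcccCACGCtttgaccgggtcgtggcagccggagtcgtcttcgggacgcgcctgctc
ACSL3: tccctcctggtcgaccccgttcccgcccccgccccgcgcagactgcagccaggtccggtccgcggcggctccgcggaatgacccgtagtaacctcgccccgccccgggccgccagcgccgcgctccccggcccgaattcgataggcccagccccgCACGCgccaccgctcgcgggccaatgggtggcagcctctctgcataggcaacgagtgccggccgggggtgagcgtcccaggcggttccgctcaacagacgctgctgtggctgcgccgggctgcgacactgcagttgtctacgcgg

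The PLIN2 window holds 3 matches to ACGTG and 2 to GCGTG. Of these, 2 matches to ACGTG overlap as the palindrome CACGTG, read on both strands, 69 and 68 bases before the start. ACSL3 holds 1 match to GCGTG and none to ACGTG. Of the other members with a promoter in the table, G0S2 holds 4 matches and PLIN3 holds 3, all to GCGTG, and PNPLA2 holds none. Promoters of 5 of the 8 genes were matched. Among 35116 promoters of the same length, 21.4% hold ACGTG, 36.5% hold GCGTG, 48.4% hold either, 10.1% hold at least 3 and 1.98% at least 5. A match describes letters in this window and is not a measured site.

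PLIN3 encodes perilipin 3, a coat protein that also resides in the cytosol. It stood at 51.2, 54.1 and 51.6 CPM in replicates A, B and C of normoxia siControl and at 62.4, 78.4 and 62.2 CPM in normoxia siARNT. In hypoxia it was 58.2, 60.8 and 55.4 CPM in siControl and 58.6, 60.1 and 68.4 CPM in siARNT. In each of the 4 groups PLIN3 was highest in the library with the most positive GC slope. It was highest of all 12 in replicate B of normoxia siARNT, where that slope was most positive. Its change with siARNT in normoxia was 0.37 (SE 0.0926, adjusted p 0.0172), but this was -0.01 (adjusted p 0.972) with a correction for GC content, and lost its call without normoxia siControl replicate A (0.0756) or C (0.0719). Without normoxia siARNT replicate B it was 0.24 (adjusted p 0.0445). Hypoxia in siControl gave 0.15 (SE 0.0927, adjusted p 0.263), with groups that did not overlap.

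In each library the PLIN2 level was set against that of PLIN3, per kb. With siControl the log2 ratio was -2.64 ± 0.0256 in normoxia and -1.97 ± 0.0282 in hypoxia (SD, n = 3). With siARNT it was -2.60 ± 0.155 in normoxia and -2.93 ± 0.152 in hypoxia. PLIN3 had the higher level per kb of the coat genes in all 4 groups, and the gap was narrowest in hypoxia siControl. The size of the gap depends on the annotated exon lengths (5086 bp for PLIN2 and 2813 bp for PLIN3). The ratio also carries the move of PLIN3 with the GC slope.

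PNPLA2 encodes adipose triglyceride lipase, which starts the breakdown of stored triglyceride. Replicates A, B and C held 5.39, 9.01 and 5.88 CPM in normoxia siControl, and 12.1, 18.5 and 10.9 CPM in hypoxia siControl. With siARNT it was 8.56, 19.98 and 9.73 CPM in normoxia, and 8.09, 10.7 and 17.4 CPM in hypoxia. The hypoxia and normoxia siControl libraries did not overlap, yet the rise of 1.04 did not pass the test (SE 0.375, adjusted p 0.065). The 95% interval ran from 0.17 to 1.90. The rise was called in a fit of those groups alone (adjusted p 0.0071) and with letters within each siRNA taken as wells (0.028). It was also called without normoxia siARNT replicate B (0.0144) or hypoxia siARNT replicate C (0.0454). Within each of the 4 groups the highest library was the one with the most positive GC slope, and a fit with a correction for GC content gave 0.76 (adjusted p 9.21e-06). The change with siARNT in normoxia was 0.92 (adjusted p 0.0967), 0.43 without replicate B of normoxia siARNT (adjusted p 0.396) and, with the correction, 0.15 (adjusted p 0.261). With siARNT in hypoxia it was -0.20 (adjusted p 0.728), and -0.37 with the correction (adjusted p 0.00386). The interaction was -1.12 (adjusted p 0.252) and -0.52 with the correction (adjusted p 0.0132).

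HILPDA and G0S2 encode small proteins that bind and inhibit this lipase. HILPDA, hypoxia inducible lipid droplet associated, stood at 6.74, 6.28 and 6.72 CPM in replicates A, B and C of normoxia siControl and at 6.65, 7.37 and 7.45 CPM in hypoxia siControl. With siARNT it was 6.27, 7.01 and 5.73 CPM in normoxia and 5.06, 5.50 and 6.43 CPM in hypoxia. The normoxia and hypoxia siControl groups overlapped, and the change was 0.12 (SE 0.114, adjusted p 0.492), with a 95% interval from -0.14 to 0.38. All hypoxia siARNT libraries were below all hypoxia siControl libraries. HILPDA was called lower with siARNT in hypoxia, with a change of -0.34 (SE 0.115, adjusted p 0.0451). That call ended without any 1 of 9 of the 12 libraries (adjusted p 0.0611 to 0.149). It held without normoxia siARNT replicate B or C or hypoxia siARNT replicate C. It also ended with total count scaling (0.146), with no filter (0.129), with only the groups compared (0.137) and with the replicate letter as a block (0.0512). With a GC correction the change was -0.38 (adjusted p 0.00423).

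G0S2 was the lowest of the 8 genes in CPM. It stood at 3.05, 2.52 and 2.62 CPM in replicates A, B and C of normoxia siControl, and at 3.496, 4.27 and 3.28 CPM in normoxia siARNT. In hypoxia it was 2.97, 2.41 and 2.32 CPM with siControl and 3.31, 3.02 and 2.43 CPM with siARNT. The normoxia siARNT libraries lay above the normoxia siControl libraries, with a change of 0.43 (SE 0.157, adjusted p 0.0711). With total count scaling the adjusted p was 0.0452, and with the GC correction the change was 0.11 (adjusted p 0.698). Hypoxia in siControl gave -0.09 (SE 0.16, adjusted p 0.739).

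DGAT1 and DGAT2 are unrelated enzymes that make triglyceride from diacylglycerol. DGAT2 stood at 21.4, 24.9 and 20.8 CPM in replicates A, B and C of normoxia siControl and 32.7, 41.9 and 32.8 CPM in normoxia siARNT. In hypoxia it was 19.9, 21.6 and 19.9 CPM with siControl and 23.3, 28.2 and 31.5 CPM with siARNT. With siARNT its libraries lay above those of siControl at both oxygen levels, with a change of 0.68 at 21% O2 (SE 0.126, adjusted p 0.00364) and of 0.43 at 1% O2 (SE 0.126, adjusted p 0.0222). The call in hypoxia ended without hypoxia siControl replicate A (0.0736) or C (0.0661) or hypoxia siARNT replicate B (0.0673) or C (0.0845). In each group the highest DGAT2 library was the one with the most positive GC slope. With the GC correction its change with siARNT was 0.58 at 21% O2 (adjusted p 1.7e-05) and 0.38 at 1% O2 (adjusted p 0.000584). Hypoxia in siARNT gave -0.37 (SE 0.125, adjusted p 0.115, edgeR's quasi-likelihood test), with groups that did not overlap. With the correction that change was called, at -0.30 (adjusted p 0.00814). Hypoxia in siControl gave -0.13 (adjusted p 0.506), and -0.10 with the correction (adjusted p 0.307).

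DGAT1 stood at 35.4, 40.6 and 35.4 CPM in replicates A, B and C of normoxia siControl and at 43.4, 73.6 and 43.5 CPM in normoxia siARNT. Hypoxia libraries held 39.5, 56.0 and 34.3 CPM with siControl and 30.5, 37.2 and 47.5 CPM with siARNT. In each of the 4 groups its highest library was again the one with the most positive GC slope. No comparison called DGAT1, and siARNT in normoxia gave 0.53 (SE 0.237, adjusted p 0.124), against 0.22 without its replicate B (adjusted p 0.492) and -0.15 (adjusted p 0.0651) with the correction for GC content. With that correction DGAT1 was lower with siARNT in hypoxia (-0.29, adjusted p 0.000881), against -0.17 (adjusted p 0.636) without it. Hypoxia in siARNT gave -0.48 (adjusted p 0.277, edgeR's quasi-likelihood test), and -0.18 with the correction, which was called (adjusted p 0.0407). Hypoxia in siControl gave 0.22 (adjusted p 0.546), and -0.04 with the correction (adjusted p 0.624).

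ACSL3 encodes a long chain acyl-CoA synthetase that joins nascent droplets and activates fatty acids for storage. It stood at 166, 153 and 154 CPM in replicates A, B and C of normoxia siControl and at 122, 112 and 119 CPM in hypoxia siControl. With siARNT it was 143, 123 and 150 CPM in normoxia and 151, 139 and 130 CPM in hypoxia. Hypoxia in siControl lowered it, with a change of -0.42 (SE 0.081, adjusted p 0.00245), and no library of the groups overlapped. In siARNT the change was 0.01 (SE 0.0809, adjusted p 0.946), and the difference between the responses was 0.44 (SE 0.114, adjusted p 0.0529). That difference was called with DESeq2 (adjusted p 0.0423), with total count scaling (0.0156), without hypoxia siARNT replicate C (0.0316) and with the GC correction (0.34, adjusted p 7.25e-05). With siARNT in hypoxia it was higher by 0.25 (SE 0.0811, adjusted p 0.0365), a call that ended with DESeq2 (0.0598), with no filter (0.0532) and without any 1 of 8 libraries: each normoxia and each hypoxia siControl library, and hypoxia siARNT replicates A and B (0.0521 to 0.155). In each group its lowest library was the one with the most positive GC slope. With the GC correction the change of ACSL3 was -0.35 for hypoxia in siControl (adjusted p 3.24e-07). It was 0.30 with siARNT in hypoxia (adjusted p 1.06e-06).

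**Figure D2:**
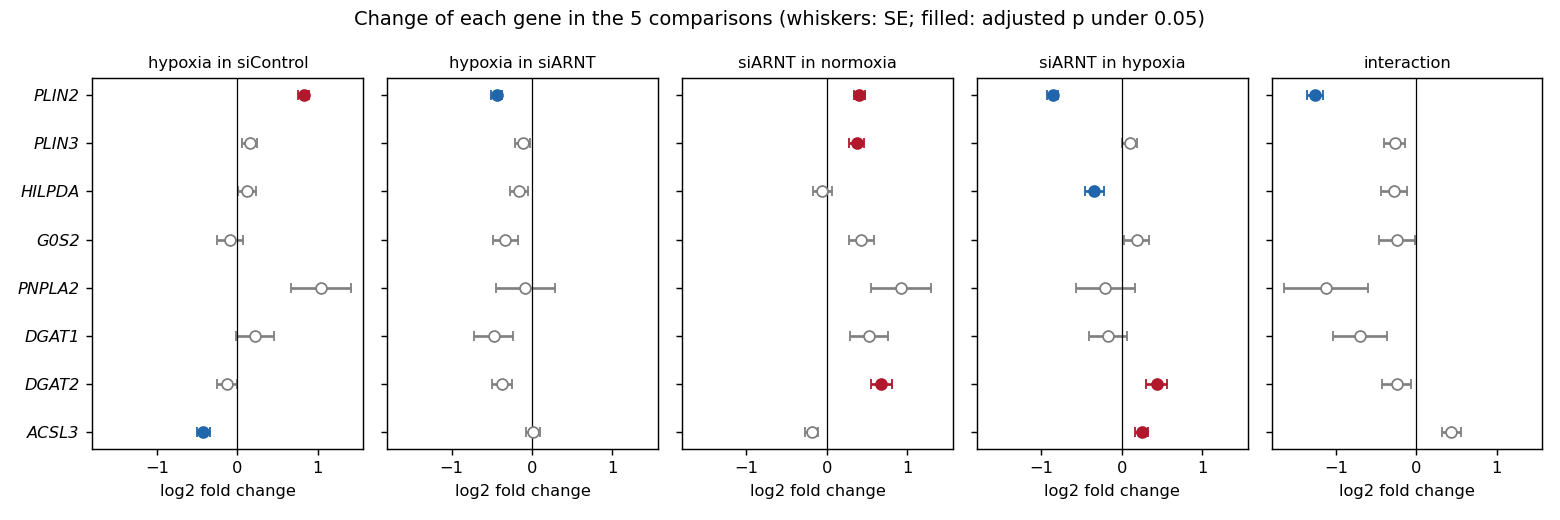
Log2 fold change of each of the 8 genes (horizontal axis) in the 5 comparisons, with whiskers for the SE, filled points for calls at an adjusted p under 0.05, red for higher and blue for lower. PLIN2 is called in all 5 panels, from -1.26 in the interaction to 0.83 for hypoxia in siControl.

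Hypoxia in siControl called 2 of the 8 genes, PLIN2 up and ACSL3 down, where 25.3% of 16999 tested genes were called, 10.4% higher and 14.9% lower. Groups did not overlap in 4 of the 8, against 46.8% of all genes. In siARNT, hypoxia called 1, PLIN2, where 4.09% of genes were called, 2.21% higher and 1.89% lower, and groups did not overlap in 2 (22.2%). With siARNT in normoxia 3 were called, all higher (PLIN2, PLIN3 and DGAT2), where 20.2% of genes were called, 9.42% higher and 10.8% lower, and 6 did not overlap (46.5%). With siARNT in hypoxia 4 were called, PLIN2 and HILPDA lower and DGAT2 and ACSL3 higher, where 29.1% of genes were called, 14.4% higher and 14.7% lower, and 4 did not overlap (40.3%). The interaction called PLIN2 of the 8, where 4.69% of genes were called, 2.49% higher and 2.19% lower. The median log2 fold change of the 8 genes in these comparisons was 0.14, -0.25, 0.42, -0.04 and -0.28, and that of all tested genes 0.02, -0.04, 0.01, 0.02 and -0.02. The comparisons share control groups, so their values are not independent of each other.

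**Figure D3:**
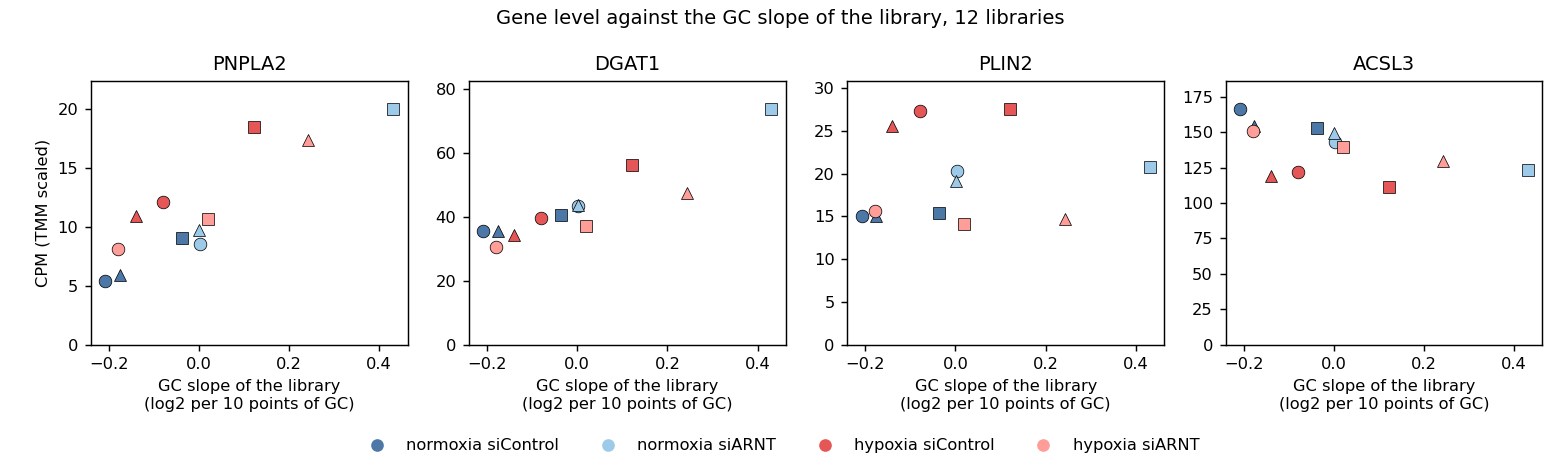
CPM of PNPLA2, DGAT1, PLIN2 and ACSL3 (vertical axis, from 0) against the GC slope of the library (horizontal axis, log2 per 10 points of GC) in the 12 libraries, coloured by group, with circles, squares and triangles for replicates A, B and C. PNPLA2 and DGAT1 are highest in normoxia siARNT replicate B, whose slope is 0.431, and PLIN2 in hypoxia siControl stays above 25 CPM at every slope.

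Other genes of droplet metabolism were counted from a list of 66, of which 55 could be tested. Their changes are given without a GC correction. Some of those named below moved with the GC slope. In each group the library with the most positive slope was the highest for LPIN3, SLC27A1, CIDEB, CIDEC and LDAF1. It was the lowest for GPAM, GPAT3, DDHD2 and FABP5. Hypoxia in siControl called 17 of the 55 (11 higher and 6 lower), where 25.3% of all tested genes were called. Hypoxia in siARNT called 3 (2 and 1; 4.09% of all genes), siARNT in normoxia 14 (2 and 12; 20.2%), siARNT in hypoxia 23 (10 and 13; 29.1%) and the interaction 5 (3 and 2; 4.69%).

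Among them, 3 genes of coating and fusion could be tested. CIDEC, which promotes fusion of droplets, was lower with siARNT in hypoxia (-0.96, SE 0.237, adjusted p 0.00966), at 9.28 ± 1.8 CPM in siControl against 4.77 ± 1.116 CPM. CIDEB rose with hypoxia in siControl by 0.40 (SE 0.105, adjusted p 0.015). Of 5 assembly genes, FITM2, which binds nascent triglyceride at the endoplasmic reticulum, fell with hypoxia in siControl by 0.45 (SE 0.0626, adjusted p 0.000353), from 21.0 ± 0.21 to 15.5 ± 0.49 CPM, and rose with siARNT at 1% O2 (0.36, adjusted p 0.00112; interaction 0.44, adjusted p 0.0179). LDAF1, a partner of seipin, rose with hypoxia by 0.43 in siControl (adjusted p 0.000287) and by 0.26 in siARNT (adjusted p 0.0346). BSCL2, which encodes seipin, was lower with siARNT in hypoxia (-0.41, adjusted p 0.0175).

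For lipid synthesis 12 genes could be tested, and hypoxia in siControl called 4 higher and 2 lower, where 10.4% of all genes were called higher and 14.9% lower. GPAM and GPAT3, which begin glycerolipid synthesis, fell by 0.55 (SE 0.0826, adjusted p 0.000527) and by 0.64 (SE 0.0659, adjusted p 3.97e-05). GPAT3 went from 104.5 ± 3.47 to 66.9 ± 3.63 CPM, and its interaction was 0.57 (SE 0.0929, adjusted p 0.00624). LPIN3, a phosphatidate phosphatase, went from 14.7 ± 1.73 to 32.8 ± 6.55 CPM, a rise of 1.16 (SE 0.223, adjusted p 0.00291). ACSL4, a relative of ACSL3, fell with hypoxia in siControl by 0.50 (SE 0.0957, adjusted p 0.00248) and was higher with siARNT in hypoxia by 0.50 (SE 0.0958, adjusted p 0.0022). ACSL5 was lower with siARNT in hypoxia (-0.18, adjusted p 0.0323).

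Of 7 other lipolysis genes hypoxia in siControl called 1, lower, and of 8 oxidation genes 1, higher (14.9% and 10.4% of all genes). ABHD5, the activator of the PNPLA2 lipase, fell with hypoxia in siControl by 0.44 (SE 0.107, adjusted p 0.0099). DDHD2, a triglyceride hydrolase, was lower with siARNT by -0.45 in normoxia (SE 0.0752, adjusted p 0.00196) and by -0.42 in hypoxia (SE 0.0755, adjusted p 0.00137). PPARA, the nuclear receptor that drives fatty acid oxidation, stood at 136.1 ± 2.79, 48.4 ± 1.33, 176.1 ± 11.1 and 51.1 ± 1.27 CPM in the 4 groups (SD, n = 3). It was lower with siARNT at both oxygen levels, with a change of -1.49 at 21% O2 (SE 0.0577, adjusted p 2.19e-08) and of -1.79 at 1% O2 (SE 0.0583, adjusted p 2.74e-09). CPT1A, which admits fatty acids to mitochondria, was lower with siARNT in normoxia (-0.39, adjusted p 0.000567) and in hypoxia (-0.41, adjusted p 0.000148). ACADM, a fatty acid dehydrogenase, rose with siARNT at 1% O2 (0.28, adjusted p 0.0431). HSD17B11, a droplet dehydrogenase, rose with hypoxia in siControl by 0.27 (adjusted p 0.0256). It was lower with siARNT in normoxia (-0.41, adjusted p 0.00425) and in hypoxia (-0.52, adjusted p 0.000407).

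For uptake, the fatty acid binding protein FABP5 fell with hypoxia in siControl by 1.10 (SE 0.117, adjusted p 5.19e-05), from 18.7 ± 0.947 to 8.74 ± 1.42 CPM. It also fell in siARNT, by 0.60 (SE 0.115, adjusted p 0.02). The transporter SLC27A1 rose by 1.23 in siControl (SE 0.327, adjusted p 0.0165; 1.497 ± 0.134 to 3.52 ± 0.898 CPM). CD36, a fatty acid receptor at a low level, was lower with siARNT by -0.82 in normoxia (SE 0.258, adjusted p 0.0434) and by -1.04 in hypoxia (SE 0.262, adjusted p 0.0107).

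**Figure D4:**
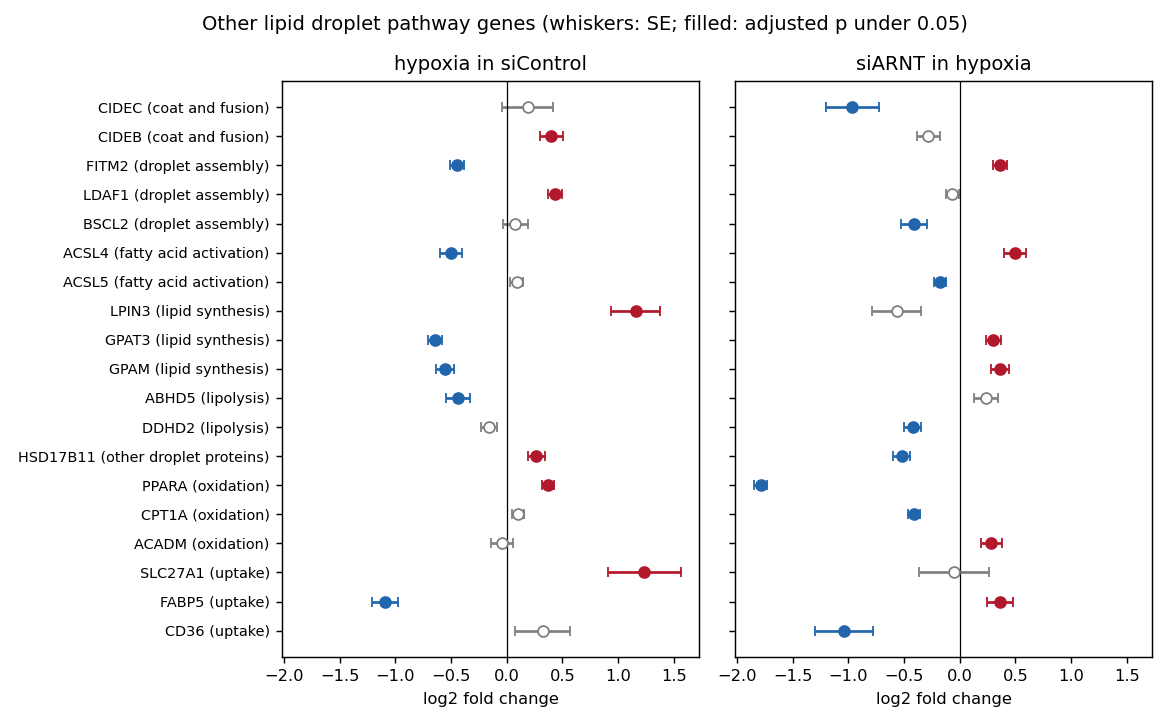
Log2 fold change (horizontal axis) of the 19 named genes of droplet metabolism for hypoxia in siControl and for siARNT in hypoxia, with whiskers for the SE and filled points for calls. PPARA has the most negative value with siARNT in hypoxia, at -1.79, and FABP5 the most negative with hypoxia in siControl, at -1.10.

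The tested genes whose log2 CPM over the 12 samples was most like that of HILPDA were ZNF133 (Pearson r = 0.931), WNT7B (0.912), DMAP1 (0.905), PLP2 (0.903) and TMSB10 (0.902), among 9848 candidates. These r values share the same libraries and describe them only.

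Splicing was a second readout, as the share of the form that includes a sequence (percent spliced in, PSI). The event files list 19 events in 5 of the genes (ACSL3 10, DGAT1 4, PLIN3 3, DGAT2 1 and PLIN2 1), and 16 had enough reads to be tested. No event was called in any of the 5 comparisons by edgeR's quasi-likelihood test or by limma for intron retention, with 1, 0, 2, 0 and 1 events at an unadjusted p under 0.05. By limma on the logit of the deposited share, of 15 testable events, again none was called, with 2, 1, 1, 1 and 1 under 0.05. Calls among all tested events were rare too: 0.176% of 21563 exon skips for hypoxia in siControl, 0.107%, 0.557% and 0.329% in the next 3 comparisons and 0.0232% for the interaction. Among alternative 3' splice sites 0.0116%, 0.0116%, 0%, 0.0116% and 0% were called, among introns 0.0708%, 0%, 0.0236%, 0.0236% and 0.0708%, and among multiple exon skips 0.0587%, 0%, 0.137%, 0.0782% and 0%.

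DGAT1 retained 1 intron in a share of reads. Its PSI in the 3 replicates was 21, 25 and 21% in normoxia siControl and 27, 27 and 31% in hypoxia siControl, and 19, 18 and 18% and 22, 24 and 28% in siARNT. The hypoxia libraries lay above the normoxia libraries within each siRNA, and neither change passed the test (p 0.0723 and 0.0548, adjusted p 0.672 and 0.696 by limma). By PSI, ACSL3 skipped a 107 nt exon more often than it included it, at 33.7 ± 5.69, 39 ± 2.65, 32 ± 3.61 and 35 ± 3.61% in the 4 groups (SD, n = 3). In its most read event, a multiple exon skip, PSI lay between 97 and 100% in every library. An alternative 3' splice site of ACSL3 had the lowest p for hypoxia in siControl (p 0.00635, adjusted p 0.967), at 4.33 ± 1.15 against 1.33 ± 0.577%. DGAT2's exon skip and the PLIN3 event with most reads gave adjusted p values of 0.901 or more.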

How the data were processed

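Poly(A) RNA of AsPC-1 cells was sequenced in 12 libraries, single-end and stranded, per the labels' protocols. Trimmomatic and STAR 2.4.2a and the build GRCh38.p10 are listed in the submitters' processing notes. The counter's settings are not given in the sources used here. The deposited gene files hold counts, and the deposited event files hold junction counts, mean intron coverage (signal) and PSI as a fraction of 1, per the headers and values of the files. Rows that name no gene (22.71 to 25.2% of reads) were left out. Replicates of every group differed beyond sampling noise.

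Counts were tested with edgeR 4.0.16 in R 4.3.3 (TMM scaling, filterByExpr, robust quasi-likelihood fit to all 12 samples, 1 mean per group), with Benjamini-Hochberg adjustment over 16999 genes and calls at an adjusted p under 0.05. Inclusion and exclusion counts were fitted likewise with a term per sample for events with a mean of at least 20 reads and 10 of the less used form, and intron retention with limma 3.58.1 on log2((coverage + 0.5)/(junction count + 0.5)). A first version of the inclusion fit, with an estimated dispersion, failed on simulated data after it had been run on these data, so the dispersion was set to 0, and the first version is kept as an alternative. Both call no event of the 8 genes. DESeq2 1.42.0, total count scaling, no filter, fits to the groups compared, blocks, a GC correction and leaving out each library were alternatives. Gene lengths and GC content come from GENCODE 29.

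All 8 genes are named. Of each role in the pathway list, up to 3 genes with at least 1 CPM and the largest change among those called for hypoxia in siControl or siARNT in hypoxia were named, as were the 5 genes most like HILPDA among those with a mean of at least 5 CPM. The members and lists were chosen with earlier results of these data known. Letters were not treated as pairs in the main fit, and the replicate letter as a block was an alternative. Same-lettered libraries correlated at -0.402 to 0.491 in their deviations, which with 3 libraries per group cannot exclude pairing. Intervals cover the spread of these samples only.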

Additional observations from a re-analysis of the deposited data

Results flagged for a closer look

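The response of PLIN2 to hypoxia had opposite signs in the siRNA groups and the difference itself was tested: the interaction was -1.263 on the log2 scale (SE 0.0983, adjusted p 3.42e-05, edgeR's quasi-likelihood test). All 3 hypoxia siControl libraries were above all 3 normoxia siControl libraries, and all 3 hypoxia siARNT libraries were below all 3 normoxia siARNT libraries. Over the 19 alternatives the interaction ran from -1.31 to -1.21, with an adjusted p from 2.98e-24 to 0.00196.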

How the results depend on the processing

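Over the 776 values of the 40 gene results under alternatives, 692 kept their direction and side of the threshold. With the direction kept, 32 lost a call and 26 gained one. Another 26 changed sign, with or without a change of call, 10 of these without a GC correction. PLIN2 kept its direction and calls under each alternative, apart from the 3 named for hypoxia in siARNT. Moves in the number of the 8 genes called included the following. The share of all tested genes called in the same fit stands in brackets. For hypoxia in siARNT it was 0 when only the groups compared were fitted (0.135%) and with letters within each siRNA taken as wells (0.8%). It was 3 with the GC correction (21.5%) and 4 with the GC correction and the replicate block (23.0%). The interaction called 2 with DESeq2 (1024 genes in all), 2 with total count scaling (8.79%), 2 with the replicate block (5.65%) and 3 with either GC correction (18.5 and 19.8%). For siARNT in hypoxia it was 2 with no filter, which tests more genes (12.4%), and 6 with either GC correction (46.1 and 47.5%). For hypoxia in siControl it was 3 with either GC correction (42.7 and 44.3%). It was also 3, with PNPLA2 gained, with only the groups compared (35.2%), with the replicate block (27.9%) and with letters taken as wells (23.3%). For siARNT in normoxia PLIN3 lost its call with the GC correction (adjusted p 0.972, 32.6%). There G0S2 gained one with total count scaling (adjusted p 0.0452, 21.3%). With the replicate letter as a block, siARNT in normoxia called 5 (27.8%), HILPDA lost its call for siARNT in hypoxia (adjusted p 0.0512) and ACSL3 gained one in the interaction (0.0279). By the check used, the same letter was the best match for some libraries and not for others. With 3 libraries per group that check cannot exclude pairing. With 1 library left out the counts ran from 2 to 3 for hypoxia in siControl, 0 to 1 for hypoxia in siARNT, 2 to 3 for siARNT in normoxia, 1 to 4 for siARNT in hypoxia and 1 to 2 for the interaction. For the other 55 genes they ran from 13 to 18, 1 to 3, 7 to 16, 15 to 28 and 2 to 7.

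Signs changed with the GC correction, with the replicate block beside it or not, for DGAT1 with hypoxia in siControl (-0.041, and -0.040 with the block), PNPLA2 (0.25), PLIN3 (0.069 and 0.070) and ACSL3 (-0.0021) with hypoxia in siARNT, PLIN3 (-0.0056 and -0.0069) and DGAT1 (-0.15) with siARNT in normoxia, and G0S2 (0.017 and 0.011) and PLIN3 (0.023 and 0.025) in the interaction. Leaving out 1 library changed the sign of G0S2 for hypoxia in siControl (from -0.21 to 0.011), of PNPLA2 (from -0.44 to 0.40), PLIN3 (from -0.19 to 0.0046) and ACSL3 (from -0.062 to 0.068) for hypoxia in siARNT, of HILPDA for siARNT in normoxia (from -0.14 to 0.011) and of PNPLA2 (from -0.56 to 0.044) and DGAT1 (from -0.35 to 0.040) for siARNT in hypoxia. The cause was not tested. For siARNT in hypoxia the median over all tested genes shifted to 0.104 under total count scaling. No event was called under any alternative, the first version of the inclusion fit included, which was added after seeing the data. Precision is limited by 3 libraries per group.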

Other observations

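A further pair of genes of the list, FABP3 and MOGAT2, was chosen after their values were seen. Like PLIN2, both rose with hypoxia in siControl and were called lower in the interaction. The other list genes called there, GPAM (0.48), GPAT3 (0.57) and FITM2 (0.44), were called higher. Neither FABP3 (-0.03) nor MOGAT2 (-0.35) shared the rise of PLIN2 with siARNT in normoxia. With hypoxia in siARNT MOGAT2 changed by 0.27, not called, and PLIN2 by -0.44. MOGAT2 has a mean of 0.877 CPM, under the limit of 1 CPM used for naming. FABP3, a fatty acid binding protein, stood at 10.3 ± 0.116, 10.1 ± 0.318, 16.2 ± 1.54 and 8.87 ± 0.499 CPM in the groups as ordered above (siControl then siARNT, normoxia before hypoxia; SD, n = 3). Its change with hypoxia in siControl was 0.65 (SE 0.088, adjusted p 0.000254), and the interaction -0.84 (SE 0.125, adjusted p 0.00356), by edgeR's quasi-likelihood test. MOGAT2, which makes diacylglycerol, stood at 0.523 ± 0.122, 0.407 ± 0.099, 2.07 ± 0.104 and 0.503 ± 0.133 CPM in the same order, with a change of 1.97 (SE 0.221, adjusted p 7.62e-05) and an interaction of -1.70 (SE 0.34, adjusted p 0.0181).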
